A study of Mus musculus with 22 samples.

Results

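The libraries of postnatal day 11 (P11) in a bulk RNA sequencing series on mouse first mandibular molars were compared by the number before the hyphen in their names. The names run from 1-1 to 1-6 and from 2-1 to 2-4, and the labels do not say what the leading number, called the prefix here, stands for. All 10 P11 libraries of the 22 in the series entered, 6 with prefix 1 (WT 1-1, 1-3 and 1-4 and Het 1-2, 1-5 and 1-6) and 4 with prefix 2 (WT 2-1 and 2-4 and Het 2-2 and 2-3). Het molars came from Tgfbr2-G357W/+ mice, which carry 1 copy of the Tgfbr2 missense allele G357W beside 1 wild-type copy and model Loeys-Dietz syndrome type II. WT molars came from Tgfbr2-+/+ littermates, and the labels name no treatment other than age. All libraries are of total RNA, are labelled dental tissue and carry the same batch label. The comparison asks which genes differ between the prefixes at the same age, with genotype as a covariate. According to the design text, 5 Het and 8 WT mice stand behind all 22 libraries, so some libraries may share an animal, and p-values then measure the spread between libraries, which may be technical.

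At this age the molar crown is close to complete, the enamel is hardening, and the tooth is moving towards the oral cavity. Ameloblasts, the epithelial cells that make enamel, first secrete a matrix of amelogenin, ameloblastin and enamelin. They then switch to a maturation programme of proteases, ion transporters and attachment proteins, and later form the reduced enamel epithelium, which meets the oral epithelium at eruption. Odontoblasts lay down dentin from the pulp side, and the dental follicle gives rise to periodontal ligament, cementum and the adjoining bone. A dissected molar therefore holds several tissues and can carry adhering gum or bone. In such bulk samples fewer cells of a type and less RNA per cell cannot be told apart.

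Totals ran from 35879285 to 45343814 counts with prefix 1 and from 37822969 to 43950074 with prefix 2. Levels are given in CPM, counts scaled to library size with TMM factors over all 22 libraries. The libraries differed in Y-linked transcripts in a way that followed the prefix in part. Ddx3y, a Y-linked RNA helicase gene, was at 101 to 139 CPM in WT 1-3, WT 1-4, Het 1-2 and Het 1-5. It was at or below 0.0956 CPM in WT 1-1, Het 1-6 and all 4 libraries of prefix 2. Oral mucosa keratins stood apart in WT 2-1, WT 2-4 and Het 1-5, where Krt4 was at 304, 80.6 and 269.5 CPM, against 0.546 to 17.1 CPM in the other 7. The muscle actin Acta1 was highest in Het 1-5 at 33.7 CPM, against 1.21 to 11.4 CPM elsewhere. The same 3 libraries scored 62.8, 35.7 and 43.3 on the first principal component of the 1000 genes with the highest variance, which held 53% of it, and the other libraries scored -27.8 to -9.4. Results are therefore also given for subsets of libraries. The Y-free set holds the 6 libraries without Y-linked transcripts and was chosen after seeing the data. The mucosa-low set holds the 7 libraries other than WT 2-1, WT 2-4 and Het 1-5, which were set apart by their mucosal keratins in these same data. Counts of keratinocyte genes called in this set are therefore not independent of its choice. It keeps no WT library of prefix 2, and its contrast rests on Het 2-2 and 2-3 against Het 1-2 and 1-6. Markers of the labelled tissue were present in every library, with at least 16470 CPM of the ameloblast gene Ambn and 705 CPM of the odontoblast gene Dspp.

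Of 22027 genes tested with edgeR's quasi-likelihood test, 330 (1.5%) were higher and 433 (1.97%) lower with prefix 2 at a Benjamini-Hochberg adjusted p under 0.05, termed called below. For 550 genes (2.5%) all 4 libraries of prefix 2 lay above all 6 of prefix 1, and for 684 (3.11%) they lay below. The median log2 change (prefix 2 over prefix 1) of all genes was 0.002, and each log2 change below is given ± its approximate SE. The enamel matrix genes Enam, Amelx and Ambn were lower, and genes of mineralised collagenous tissue, the periodontal ligament and stratified epithelium were among those that were higher. Tgfbr2 itself was at 102 to 118 CPM (median 109) with prefix 1 and 109, 111, 112 and 96.2 CPM with prefix 2. Its log2 change of -0.03 ± 0.06 (adjusted p = 0.852) did not pass the test. The Y-free set gave 66 higher and 80 lower genes, and the mucosa-low set gave 8 and 20.

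Several called genes belong to the secretory calcium-binding phosphoproteins, a family that arose by gene duplication and supplies the matrix of enamel, dentin and bone. Its 12 members examined here were chosen after their values were seen. All lie on chromosome 5 except Amelx, on chromosome X. The members differed in direction: Csn3, Amtn, Ambn, Enam and Amelx were lower (5 of 12), Dmp1, Ibsp and Mepe were higher (3 of 12), and Odam, Odaph, Dspp and Spp1 were not called. The 4 lower genes of chromosome 5 lie between 87925579 and 88506049 (GRCm38) and the 3 higher ones between 104202613 and 104338611. Odam, next to the first group, had a log2 change of 0.12 ± 0.13. Dspp and Spp1, on either side of the second, had -0.35 ± 0.14 and 0.17 ± 0.12. The 120 bases before the start site are shown for members of each direction, because promoters of genes that went apart share a short element. Sequences are from RefSeq (GRCm38.p6), 5' to 3' on the gene's strand, and capitals mark TGATTGG, which holds a CCAAT box read from the opposite strand. Klk4, an enamel gene outside the family, is shown beside them.

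Enam (chr5:88487855-88487974, plus strand): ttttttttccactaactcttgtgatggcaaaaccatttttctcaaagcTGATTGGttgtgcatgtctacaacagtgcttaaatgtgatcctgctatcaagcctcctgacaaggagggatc
Amelx (chrX:169187210-169187329, minus strand): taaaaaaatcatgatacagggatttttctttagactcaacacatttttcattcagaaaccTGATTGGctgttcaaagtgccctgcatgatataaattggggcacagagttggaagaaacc
Ambn (chr5:88455871-88455990, plus strand): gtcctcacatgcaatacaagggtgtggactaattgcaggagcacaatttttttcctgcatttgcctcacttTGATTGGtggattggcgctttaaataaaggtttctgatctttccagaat
Amtn (chr5:88375988-88376107, plus strand): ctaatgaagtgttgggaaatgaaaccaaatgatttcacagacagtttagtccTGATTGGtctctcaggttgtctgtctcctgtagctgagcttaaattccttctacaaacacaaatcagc
Klk4 (chr7:43881040-43881159, plus strand): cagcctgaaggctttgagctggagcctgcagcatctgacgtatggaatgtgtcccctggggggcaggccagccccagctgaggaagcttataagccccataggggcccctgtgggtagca
Odam (chr5:87884890-87885009, plus strand): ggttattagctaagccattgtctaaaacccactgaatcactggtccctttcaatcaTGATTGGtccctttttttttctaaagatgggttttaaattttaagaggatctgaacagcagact
Dmp1, upstream start (chr5:104197455-104197574, plus strand): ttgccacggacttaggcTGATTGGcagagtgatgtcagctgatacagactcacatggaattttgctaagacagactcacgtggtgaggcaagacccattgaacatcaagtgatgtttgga
Ibsp (chr5:104299167-104299286, plus strand): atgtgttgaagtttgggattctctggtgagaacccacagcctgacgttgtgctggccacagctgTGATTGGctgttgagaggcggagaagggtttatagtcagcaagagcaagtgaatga
Mepe (chr5:104325209-104325328, plus strand): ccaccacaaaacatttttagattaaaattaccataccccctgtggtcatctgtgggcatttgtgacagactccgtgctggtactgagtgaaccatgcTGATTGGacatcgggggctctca

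TGATTGG was noticed in these sequences and then searched for on both strands (reverse complement CCAATCA) in the 250 bases before each start site. Of the 12 family members, 10 had an entry, with 12 start sites between them, and 9 of these start sites, each of a different gene, held the motif on the gene's strand. For Dmp1 it stands before a start site that lies upstream of the gene's annotated coordinates, and the start site next to the annotated start had no match. For Ibsp the annotated gene starts at 104299171, so nearly all of the printed window, with the motif, lies inside the annotated gene. The first base of the motif lay 23 (Mepe) to 103 (Dmp1) bases before the RefSeq start site. Of all 32851 promoters searched, 7.23% held it on either strand and 3.64% on the gene's strand. Within the last 120 bases it stood on the gene's strand in 2.63% of all promoters and before the same 9 start sites. These were Enam, Amelx, Ambn and Amtn, which were lower, Odam and Spp1, which were not called, and Dmp1, Ibsp and Mepe, which were higher. Klk4, Odaph and the other start site of Spp1 also had no match. A match describes letters in this window, not binding.

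Enam, which encodes enamelin (ENSMUSG00000029286, GRCm38 chromosome 5, 88487975 to 88506049), was at 359, 199.9 and 389 CPM in the WT and 2367, 2693 and 1853 CPM in the Het libraries of prefix 1. The Enam levels with prefix 2 were 33.4 and 39.5 CPM for WT and 142 and 70.4 CPM for Het. Every library of prefix 2 lay below every library of prefix 1, the Het libraries of prefix 1 were the highest and the WT libraries of prefix 2 the lowest. For Enam the log2 change was -3.75 ± 0.35 (adjusted p = 0.00106). At P5, while the matrix is being secreted, the 12 libraries had a median of 27140 CPM (range 23670 to 31320). Amelx, which encodes amelogenin, the main protein of the matrix (ENSMUSG00000031354, GRCm38 chromosome X, 169176114 to 169187200), was at 1673, 1498 and 1662 CPM in the WT and 4423, 4415 and 3065 CPM in the Het libraries of prefix 1. The Amelx levels with prefix 2 were 589.8 and 637 CPM for WT and 906 and 909 CPM for Het. The order of its groups was the same, again without overlap. For Amelx the log2 change was -1.75 ± 0.16 (adjusted p = 0.00106), and the P5 median was 40950 CPM (range 30230 to 47240). Ambn, the ameloblastin gene, had 21800 to 37160 CPM (median 25220) with prefix 1 and 16960, 16470, 19950 and 17230 CPM with prefix 2. For Ambn the log2 change was -0.65 ± 0.13 (adjusted p = 0.0253), smaller than for the other matrix genes, and the transcript remained abundant in all 10 libraries.

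Of the 20 secretory-stage genes tested, 7 were lower and 1 was higher, with a median log2 change of -0.27. Relt, a receptor of the tumour necrosis factor family mutated in hereditary enamel defects, was lower at -0.69 ± 0.17 (adjusted p = 0.0451). The calcium-binding protein calbindin, Calb1, was lower at -0.58 ± 0.13 (adjusted p = 0.0377). Satb1, a chromatin organiser, had 62.5 to 88 CPM (median 72.4) with prefix 1 and 51.8, 49.1, 41 and 51.1 CPM with prefix 2. For Satb1 the log2 change was -0.60 ± 0.10 (adjusted p = 0.0095). Msx2, a homeobox gene, had 48.1 to 64.5 CPM (median 57.7) with prefix 1 and 40.9, 39.7, 47 and 40 CPM with prefix 2. For Msx2 the log2 change was -0.45 ± 0.07 (adjusted p = 0.0068), and neither gene overlapped between prefixes. Fam83h, also known from hereditary enamel defects, was the higher member, with 31.4 to 37.8 CPM (median 32) with prefix 1 and 61, 49.1, 41.5 and 43.5 CPM with prefix 2. For Fam83h the log2 change was 0.53 ± 0.08 (adjusted p = 0.00619). The matrix protease Mmp20 (-0.23 ± 0.09, adjusted p = 0.184), the laminin chain Lamb3 (-0.22 ± 0.09, adjusted p = 0.215), the phosphatase Acp4 (-0.18 ± 0.10, adjusted p = 0.373) and the homeobox gene Dlx3 (-0.42 ± 0.18, adjusted p = 0.243) did not pass. The mean log2 CPM of the list was 6.68 to 7.14 with prefix 1 and 6.34 to 6.52 with prefix 2, without overlap.

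Enam, Amelx, Satb1, Msx2 and Fam83h were called whichever P11 library was left out. Ambn lost its call without WT 1-4, WT 2-4, Het 2-2 or Het 2-3 (adjusted p = 0.0577 to 0.0803). Relt lost its call in every fit that left out a library other than Het 1-5, Het 1-6 or Het 2-2 (adjusted p = 0.0597 to 0.14). Calb1 lost its call in every fit that left out a library other than Het 1-2, Het 1-5, Het 1-6 or Het 2-2 (adjusted p = 0.059 to 0.0963). Of the secretory genes, 0 were called higher and 3 lower in the Y-free set, and 0 and 2 in the mucosa-low set. Enam and Amelx were called in both sets.

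**Figure D1:**
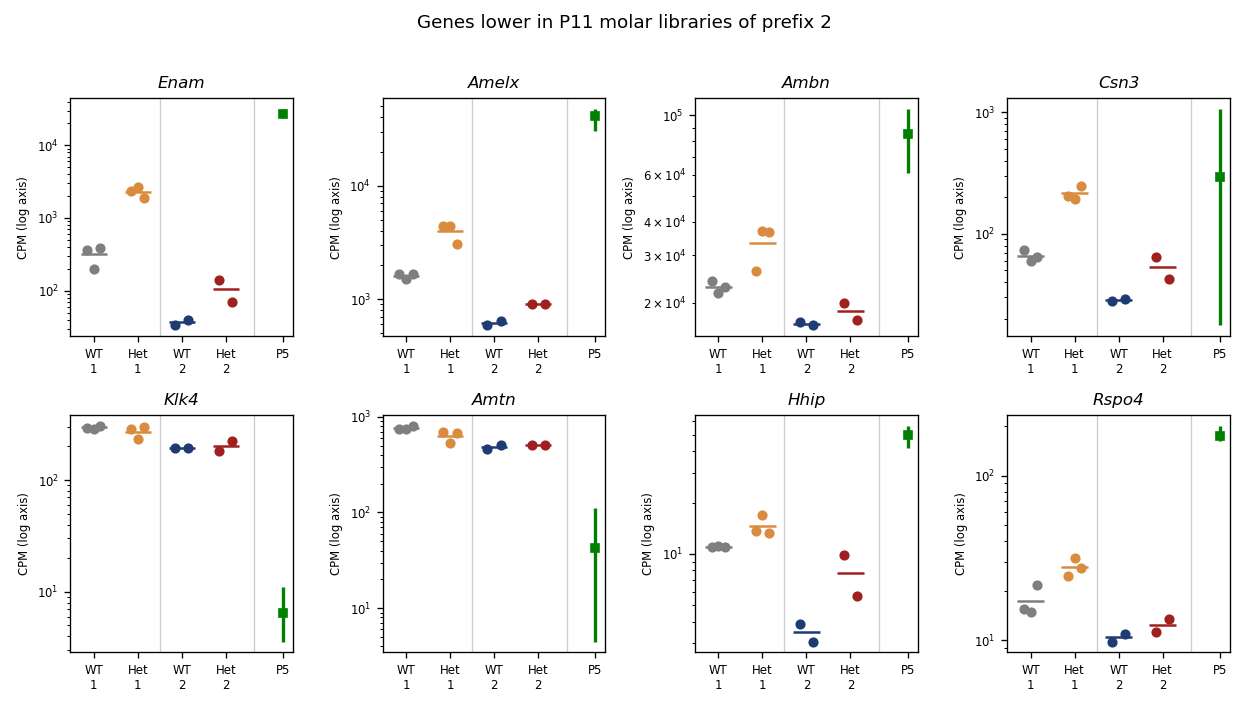
Levels in CPM on log axes of 8 genes that were lower with prefix 2, 1 point per P11 library and a bar at the group mean, for WT and Het of prefix 1 and 2, beside the median (square) and range (line) of the 12 P5 libraries. Enam and Amelx are highest at P5 and lowest with prefix 2, while Klk4 and Amtn are lowest at P5 and lower with prefix 2 than with prefix 1.

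Genes of the maturation stage were not called higher with prefix 2. Of 29 tested, 0 were higher and 5 lower, with 21 negative values and a median of -0.17. Klk4, the protease that degrades the matrix during maturation, was at 294, 288 and 308 CPM in the WT and 284, 233 and 299 CPM in the Het libraries of prefix 1. The Klk4 levels with prefix 2 were 194 and 193 CPM for WT and 182 and 226 CPM for Het. The prefix 2 values lay below all those of prefix 1, and the P5 median was 6.5 CPM (range 3.58 to 11.1). For Klk4 the log2 change was -0.51 ± 0.09 (adjusted p = 0.0118). Amtn, which encodes amelotin at the interface of ameloblast and enamel, had 537 to 808 CPM (median 723) with prefix 1 and 458, 505, 508 and 509.9 CPM with prefix 2. For Amtn the log2 change was -0.49 ± 0.10 (adjusted p = 0.02), also without overlap. Car6, a secreted carbonic anhydrase, had 12 to 23.7 CPM (median 14.1) with prefix 1 and 5.23, 7.38, 7.11 and 4.25 CPM with prefix 2 and the most negative change of the list, -1.43 ± 0.23 (adjusted p = 0.00869). The anion exchangers Slc26a7 (-0.50 ± 0.10, adjusted p = 0.0221) and Slc4a2 (-0.32 ± 0.07, adjusted p = 0.0363) were lower with overlapping groups. Odam, a further protein of that interface, was at 57920 to 81710 CPM (median 63280) with prefix 1 and 70040, 66940, 65380 and 82020 CPM with prefix 2 and was not called (0.12 ± 0.13, adjusted p = 0.677). Car6 kept its call whichever library was left out. Klk4 lost the call without WT 2-4 (adjusted p = 0.061). Amtn lost its call without WT 2-1 or WT 2-4 (adjusted p = 0.073 to 0.0871). Slc26a7 lost its call without WT 2-1, WT 2-4 or Het 2-3 (adjusted p = 0.0648 to 0.087). Slc4a2 lost its call in every fit that left out a library other than WT 1-3, Het 1-2 or Het 1-5 (adjusted p = 0.0562 to 0.151). Of the maturation genes, 0 were called higher and 0 lower in the Y-free set, and 0 and 0 in the mucosa-low set. The Y-free values were -0.58 (adjusted p = 0.0504) for Klk4 and -0.52 (adjusted p = 0.0532) for Amtn.

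Ameloblasts of rodent incisors handle iron, and 2 of 12 iron-handling genes were called. Slc40a1, which encodes ferroportin, the exporter of iron from cells, was at 142, 145 and 147 CPM in the WT and 112, 114 and 137 CPM in the Het libraries of prefix 1. The Slc40a1 levels with prefix 2 were 328 and 354 CPM for WT and 186 and 249.9 CPM for Het. All values of prefix 2 exceeded those of prefix 1, and its WT libraries were the highest. For Slc40a1 the log2 change was 1.05 ± 0.11 (adjusted p = 0.00149). Tfrc, the transferrin receptor that brings iron in, had 109.8 to 139 CPM (median 117) with prefix 1 and 87, 75.3, 102 and 92.9 CPM with prefix 2. For Tfrc the log2 change was -0.44 ± 0.08 (adjusted p = 0.0134), again without overlap. The ferritin chains Ftl1 (-0.26 ± 0.07, adjusted p = 0.0573) and Fth1 (-0.24 ± 0.09, adjusted p = 0.171) did not pass. Slc40a1 was called whichever library was left out. Tfrc lost the call without WT 2-4 (adjusted p = 0.066). Both were called in the Y-free set (adjusted p = 0.0499 and 0.0395) and neither in the mucosa-low set (adjusted p = 0.0847 and 0.19).

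Of 15 root formation genes, 5 were lower and 1 was higher (median -0.10). The list holds Hhip, Gli1, Smo and Ptch1 of hedgehog signalling, in which secreted ligands bind the receptor Ptch1, which then releases the membrane protein Smo and lets Gli transcription factors act. Ptch1, which is also induced by the pathway, had 118 to 181 CPM (median 161) with prefix 1 and 95.2, 105, 137 and 140.2 CPM with prefix 2 and was not called (-0.40 ± 0.12, adjusted p = 0.107). Hhip, an inhibitor that binds the ligands and is induced by the pathway, was at 10.9, 11.1 and 11 CPM in the WT and 13.7, 16.9 and 13.2 CPM in the Het libraries of prefix 1. The Hhip levels with prefix 2 were 3.87 and 3.06 CPM for WT and 9.85 and 5.69 CPM for Het. The groups did not overlap, and WT 2-1 and WT 2-4 were the lowest. For Hhip the log2 change was -1.27 ± 0.19 (adjusted p = 0.00598), and the P5 median was 49.9 CPM (range 41.7 to 56.6). Gli1 had 10.6 to 17.8 CPM (median 11.2) with prefix 1 and 5.95, 5.89, 9.25 and 7.36 CPM with prefix 2. For Gli1 the log2 change was -0.81 ± 0.14 (adjusted p = 0.0108), and Smo was lower by a smaller amount (-0.32 ± 0.07, adjusted p = 0.0377). The ligand gene Shh was at 0.156 to 2.01 CPM (median 0.51) with prefix 1 and 0.0478, 0.177, 0.191 and 0.325 CPM with prefix 2 and was not called (-1.89 ± 0.52, adjusted p = 0.0759). The other lower members were Msx2 and the signal transducer Smad4 (-0.44 ± 0.09, adjusted p = 0.0212), and the higher one was the Wnt-binding protein Sfrp2 (0.51 ± 0.09, adjusted p = 0.00996). Hhip was called whichever library was left out. Gli1 and Sfrp2 lost the call without WT 2-4 (adjusted p = 0.0551 and 0.0517). Smo lost its call in every fit that left out a library other than Het 1-5, Het 1-6 or Het 2-3 (adjusted p = 0.0631 to 0.154). Smad4 lost its call without WT 2-1, WT 2-4, Het 2-2 or Het 2-3 (adjusted p = 0.0584 to 0.0803). Of the root formation genes, 0 were called higher and 1 lower in the Y-free set, and 0 and 0 in the mucosa-low set. Hhip stood at -1.22 (adjusted p = 0.0765) in the Y-free and -0.80 (adjusted p = 0.185) in the mucosa-low set.

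On the list of 16 dental pulp genes 3 were lower and 0 higher (median -0.22). Rspo4, a secreted enhancer of Wnt signalling, was at 15.5, 14.8 and 21.5 CPM in the WT and 24.7, 31.4 and 27.3 CPM in the Het libraries of prefix 1. The Rspo4 levels with prefix 2 were 9.82 and 11 CPM for WT and 11.3 and 13.5 CPM for Het. All prefix 2 values were lower than those of prefix 1, and the P5 median was 173 CPM (range 163 to 201). For Rspo4 the log2 change was -0.94 ± 0.14 (adjusted p = 0.00587). Sostdc1, a secreted antagonist of BMP and Wnt signalling, had 28.8 to 36.5 CPM (median 33.6) with prefix 1 and 23.8, 25.9, 26.1 and 18.9 CPM with prefix 2. For Sostdc1 the log2 change was -0.48 ± 0.10 (adjusted p = 0.0288), without overlap. Vcan, the proteoglycan versican, overlapped between prefixes, with 334 to 446 CPM (median 378) with prefix 1 and 226, 243, 339.9 and 314 CPM with prefix 2. For Vcan the log2 change was -0.45 ± 0.07 (adjusted p = 0.00996). Rspo4 was called whichever library was left out. Vcan lost the call without WT 2-4 (adjusted p = 0.0535). Sostdc1 lost its call without WT 1-1, WT 1-4, WT 2-1, WT 2-4 or Het 2-3 (adjusted p = 0.0624 to 0.0895). Of the pulp genes, 0 were called higher and 1 lower in the Y-free set, and 0 and 0 in the mucosa-low set.

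In the opposite direction, 5 of 17 osteoblast and bone genes and 5 of 22 odontoblast and dentin genes were higher with prefix 2. Dmp1, a phosphoprotein of dentin and of bone and cementum cells (ENSMUSG00000029307, GRCm38 chromosome 5, 104202613 to 104214102), was at 208, 215 and 182 CPM in the WT and 132, 149 and 149.7 CPM in the Het libraries of prefix 1. The Dmp1 levels with prefix 2 were 426 and 341 CPM for WT and 326 and 262 CPM for Het. All 4 libraries of prefix 2 lay above all 6 of prefix 1. For Dmp1 the log2 change was 0.99 ± 0.09 (adjusted p = 0.00106), and the P5 median was 135 CPM (range 77.8 to 199). Ibsp, bone sialoprotein, an early protein of bone and cementum, was at 769, 951 and 819.7 CPM in the WT and 498, 724 and 708 CPM in the Het libraries of prefix 1. The Ibsp levels with prefix 2 were 1627 and 1392 CPM for WT and 1080 and 860.1 CPM for Het. Its groups overlapped, since Het 2-3 lay below WT 1-3. For Ibsp the log2 change was 0.72 ± 0.13 (adjusted p = 0.0125). Mepe, a matrix phosphoglycoprotein of odontoblasts and osteocytes, was low but separate, with 0.518 to 1.65 CPM (median 1.0) with prefix 1 and 7.88, 5.69, 3.82 and 1.86 CPM with prefix 2. For Mepe the log2 change was 2.12 ± 0.40 (adjusted p = 0.017). Bglap2, an osteocalcin gene whose reads may be split with its near-identical neighbour Bglap, had 5.54 to 8.25 CPM (median 6.79) with prefix 1 and 13.8, 11.1, 13.2 and 9.38 CPM with prefix 2. For Bglap2 the log2 change was 0.80 ± 0.14 (adjusted p = 0.0112), and Bglap was not called (0.30 ± 0.13, adjusted p = 0.235).

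The odontoblast and bone lists share these 4 genes. The fifth bone gene was Sost, the sclerostin of osteocytes, at 0.0217 to 0.256 CPM (median 0.109) with prefix 1 and 1.19, 0.505, 0.31 and 0.487 CPM with prefix 2 with a log2 change of 2.33 ± 0.53 (adjusted p = 0.0353). The fifth odontoblast gene was the collagen chaperone Serpinh1 (0.31 ± 0.08, adjusted p = 0.0471), and the intermediate filament gene Nes was lower (-0.51 ± 0.08, adjusted p = 0.00869). Medians were 0.17 for the bone and 0.22 for the odontoblast list. Dspp, the precursor of the main phosphoprotein of dentin, was not called (-0.35 ± 0.14, adjusted p = 0.205). Neither was the type I collagen gene Col1a1 (0.72 ± 0.20, adjusted p = 0.0813), although its prefix 2 values of 22760 to 26310 CPM lay above the prefix 1 range of 8065 to 20290 CPM. The mean log2 CPM of the bone list was 6.23 to 6.60 with prefix 1 and 6.75 to 7.07 with prefix 2, without overlap. Of 14 osteoclast genes 1 was called, the transcription factor Nfatc1 (0.33 ± 0.07, adjusted p = 0.0212), while the osteoclast enzymes Acp5 (-0.10 ± 0.16, adjusted p = 0.803) and Ctsk (-0.09 ± 0.11, adjusted p = 0.721) were not. Dmp1 and Bglap2 were called whichever library was left out. Ibsp and Nes lost the call without WT 2-4 (adjusted p = 0.051 and 0.0517). Mepe lost its call without WT 1-3 or WT 2-4 (adjusted p = 0.0501 to 0.0602). Sost lost its call in every fit that left out a library other than Het 1-2, Het 1-5 or Het 2-2 (adjusted p = 0.0548 to 0.139). Nfatc1 lost its call in every fit that left out a library other than Het 1-2, Het 1-5, Het 1-6 or Het 2-3 (adjusted p = 0.0516 to 0.082). Serpinh1 lost its call in each of the 10 fits that leave out 1 library (adjusted p = 0.056 to 0.191). Of the bone genes, 1 was called higher and 0 lower in the Y-free set, and 1 and 0 in the mucosa-low set. The gene called in both sets was Dmp1.

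**Figure D2:**
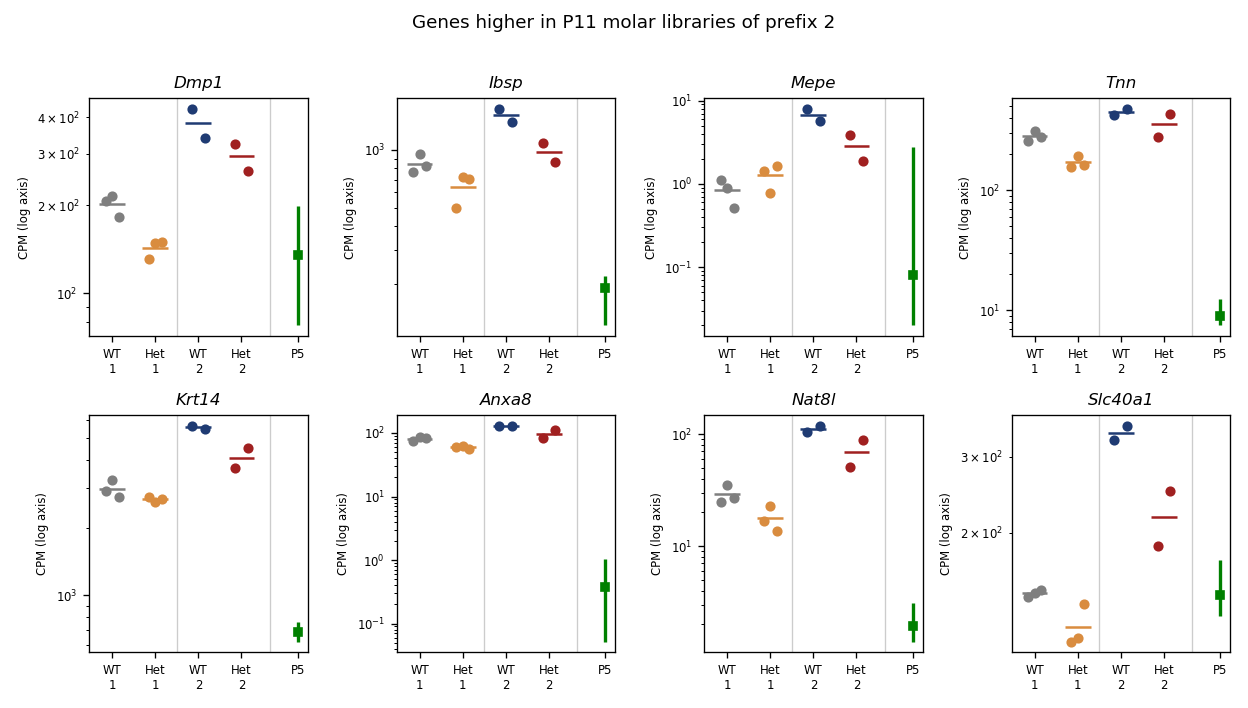
Levels in CPM on log axes of 8 genes that were higher with prefix 2, 1 point per P11 library and a bar at the group mean, for WT and Het of prefix 1 and 2, beside the median (square) and range (line) of the 12 P5 libraries, with values under 0.02 CPM drawn at 0.02. Tnn, Krt14, Anxa8 and Nat8l have their lowest median at P5 and their highest group mean in WT of prefix 2.

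Of 19 genes of the dental follicle, periodontal ligament and cementum, 5 were higher and 1 was lower, with 16 positive values and a median of 0.22. Tnn, the tenascin-W of the ligament, was at 255, 313 and 276 CPM in the WT and 157, 192 and 162 CPM in the Het libraries of prefix 1. The Tnn levels with prefix 2 were 418 and 471 CPM for WT and 279 and 429.6 CPM for Het. The Het libraries of prefix 1 were the lowest and WT 2-4 was the highest, and the ranges overlapped because Het 2-2 lay below WT 1-3. For Tnn the log2 change was 0.86 ± 0.13 (adjusted p = 0.00617), and the P5 median was 9.07 CPM (range 7.54 to 12.5). Aspn, the proteoglycan asporin, which restrains mineralisation in the ligament, had 115 to 249.6 CPM (median 170.2) with prefix 1 and 315, 370.2, 246 and 279 CPM with prefix 2. For Aspn the log2 change was 0.80 ± 0.14 (adjusted p = 0.012), with a P5 median of 17.9 CPM. Thbs2, a matricellular thrombospondin, had 327 to 514 CPM (median 429) with prefix 1 and 566, 656, 521 and 536 CPM with prefix 2. For Thbs2 the log2 change was 0.46 ± 0.08 (adjusted p = 0.014). Pthlh, the parathyroid hormone-related peptide required for tooth eruption, had 92.6 to 131 CPM (median 115) with prefix 1 and 172, 178, 134 and 172 CPM with prefix 2. For Pthlh the log2 change was 0.57 ± 0.11 (adjusted p = 0.0187), and Sost was the other higher member. Acta2, smooth muscle actin, was lower (-0.44 ± 0.10, adjusted p = 0.0432). Postn, the ligament protein periostin, did not pass (0.42 ± 0.11, adjusted p = 0.0518). The mean log2 CPM of the list was 5.67 to 5.98 with prefix 1 and 6.02 to 6.25 with prefix 2, without overlap. Tnn was called whichever library was left out. Aspn lost the call without WT 2-4 (adjusted p = 0.0586). Thbs2 lost its call without WT 2-4 or Het 2-2 (adjusted p = 0.0527 to 0.0707). Pthlh lost its call without WT 2-1, WT 2-4 or Het 2-3 (adjusted p = 0.0546 to 0.0803). Acta2 lost its call in every fit that left out a library other than Het 1-5 or Het 2-2 (adjusted p = 0.0506 to 0.134). Of the attachment genes, 1 was called higher and 0 lower in the Y-free set, and 0 and 0 in the mucosa-low set. The member called in the Y-free set was Aspn, at 1.01 (adjusted p = 0.0154). Pthlh is also 1 of 12 tooth eruption genes tested, of which 2 were called higher and 1 lower. That eruption list had 3 positive and 9 negative values and a median log2 change of -0.14.

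Fibrous matrix genes were called in both directions, 3 of 34 higher and 2 lower (median -0.01). Col3a1, the type III collagen of loose connective tissue and ligament, had 9287 to 13300 CPM (median 12450) with prefix 1 and 20670, 19900, 18090 and 16200 CPM with prefix 2. For Col3a1 the log2 change was 0.64 ± 0.11 (adjusted p = 0.0108), without overlap. The other higher genes were the type XII collagen Col12a1 (0.41 ± 0.09, adjusted p = 0.0247) and the fibulin Fbln2 (0.41 ± 0.09, adjusted p = 0.0244). The lower genes were the latent TGF-beta binding proteins Ltbp2 (-0.47 ± 0.09, adjusted p = 0.0176) and Ltbp3 (-0.44 ± 0.09, adjusted p = 0.026). TGF-beta targets were examined because the receptor carries the mutation. Of 30, 4 were lower and 0 higher (median -0.06), namely Ltbp2, Acta2, the calponin Cnn1 (-0.89 ± 0.18, adjusted p = 0.0226) and the inhibitory Smad6 (-0.67 ± 0.09, adjusted p = 0.00344). Smad6 kept its call whichever library was left out. Col3a1 lost the call without WT 2-4 (adjusted p = 0.0556). Col12a1 lost its call without WT 1-1, WT 1-4, WT 2-4, Het 2-2 or Het 2-3 (adjusted p = 0.0519 to 0.0831). Fbln2 lost its call in every fit that left out a library other than Het 1-2, Het 1-5, Het 1-6 or Het 2-3 (adjusted p = 0.0502 to 0.0925). Ltbp2 lost its call without WT 2-1 or WT 2-4 (adjusted p = 0.0603 to 0.0699). Ltbp3 lost its call in every fit that left out a library other than Het 1-5, Het 1-6 or Het 2-2 (adjusted p = 0.0521 to 0.0871). Cnn1 lost its call without WT 1-3, WT 1-4, WT 2-1, WT 2-4 or Het 2-3 (adjusted p = 0.0506 to 0.0966). Of the TGF-beta targets, 0 were called higher and 1 lower in the Y-free set, and 0 and 0 in the mucosa-low set.

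The epithelial genes Krt14, Dsg3 and Mal were higher in all 4 libraries of prefix 2 than in any of prefix 1. Krt14, a keratin of basal epithelial cells, was at 2895, 3253 and 2734 CPM in the WT and 2738, 2595 and 2676 CPM in the Het libraries of prefix 1. The Krt14 levels with prefix 2 were 5658 and 5491 CPM for WT and 3667 and 4483 CPM for Het. The groups did not overlap. For Krt14 the log2 change was 0.77 ± 0.10 (adjusted p = 0.00355), with a P5 median of 691 CPM (range 624 to 762). Krt5, the partner keratin of Krt14, had 1073 to 1271 CPM (median 1222) with prefix 1 and 1276, 1152, 891 and 1273 CPM with prefix 2 and was not called (-0.06 ± 0.11, adjusted p = 0.832). Dsg3, a desmosomal cadherin of stratified epithelia, had 127 to 164 CPM (median 153) with prefix 1 and 256, 260.5, 188 and 209.8 CPM with prefix 2. For Dsg3 the log2 change was 0.63 ± 0.10 (adjusted p = 0.00811). Anxa8, an annexin of stratified epithelia, was at 73.9, 86.3 and 83.5 CPM in the WT and 60.2, 61.6 and 55.5 CPM in the Het libraries of prefix 1. The Anxa8 levels with prefix 2 were 131 and 129.5 CPM for WT and 84 and 111 CPM for Het. Its values overlapped, since Het 2-2 lay below WT 1-3, and the P5 median was 0.377 CPM. For Anxa8 the log2 change was 0.70 ± 0.08 (adjusted p = 0.00247). Mal, a membrane trafficking protein, had 1.27 to 2.59 CPM (median 1.85) with prefix 1 and 4.75, 5.05, 3.36 and 3.46 CPM with prefix 2. For Mal the log2 change was 1.14 ± 0.16 (adjusted p = 0.00489). Krt14, Dsg3, Anxa8 and Mal were called whichever library was left out.

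Genes of mucosal and cornifying epithelium, in contrast, were high in WT 2-1, WT 2-4 and Het 1-5. Krt4, a keratin of the oral lining, was at 0.546, 1.32 and 0.567 CPM in the WT and 6.37, 269.5 and 17.1 CPM in the Het libraries of prefix 1. The Krt4 levels with prefix 2 were 304 and 80.6 CPM for WT and 1.41 and 2.83 CPM for Het. For Krt4 the log2 change was 4.12 ± 3.69 (adjusted p = 0.63), not called. Krt13, its partner, was at 229.8, 59.5 and 219 CPM in these 3 libraries and at 0.296 to 16.4 CPM in the other 7. The mean log2 CPM of the 40 oral keratinocyte genes was 5.31, 4.19 and 4.31 against 0.74 to 1.95. Of the 40, 39 had a positive log2 change (median 1.66), and 4 were called higher: Dsg3, Anxa8, Mal and the keratinocyte checkpoint protein Sfn (0.69 ± 0.15, adjusted p = 0.0336). Within WT the median was 3.68 with 28 called higher, and within Het it was -1.24 with 0 called. At least 5 CPM was the median at P5 for 7 of the 40 and with prefix 1 for 14, so molar libraries in general hold part of this list. Sfn lost its call in every fit that left out a library other than Het 1-5, Het 1-6 or Het 2-2 (adjusted p = 0.0609 to 0.111). Of the keratinocyte genes, 3 were called higher and 0 lower in the Y-free set, and 0 and 1 in the mucosa-low set. Skeletal muscle genes were not called (0 of 15), and their mean log2 CPM was 2.44 in Het 1-5 and -0.06 to 1.47 elsewhere. The part of adhering mucosa in the other results was not tested. The mucosa-low set cannot separate it, since that set also drops every WT library of prefix 2. Nor can the covariate fit given below, since its score includes called genes such as Dsg3, Anxa8, Mal and Sfn.

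**Figure D3:**
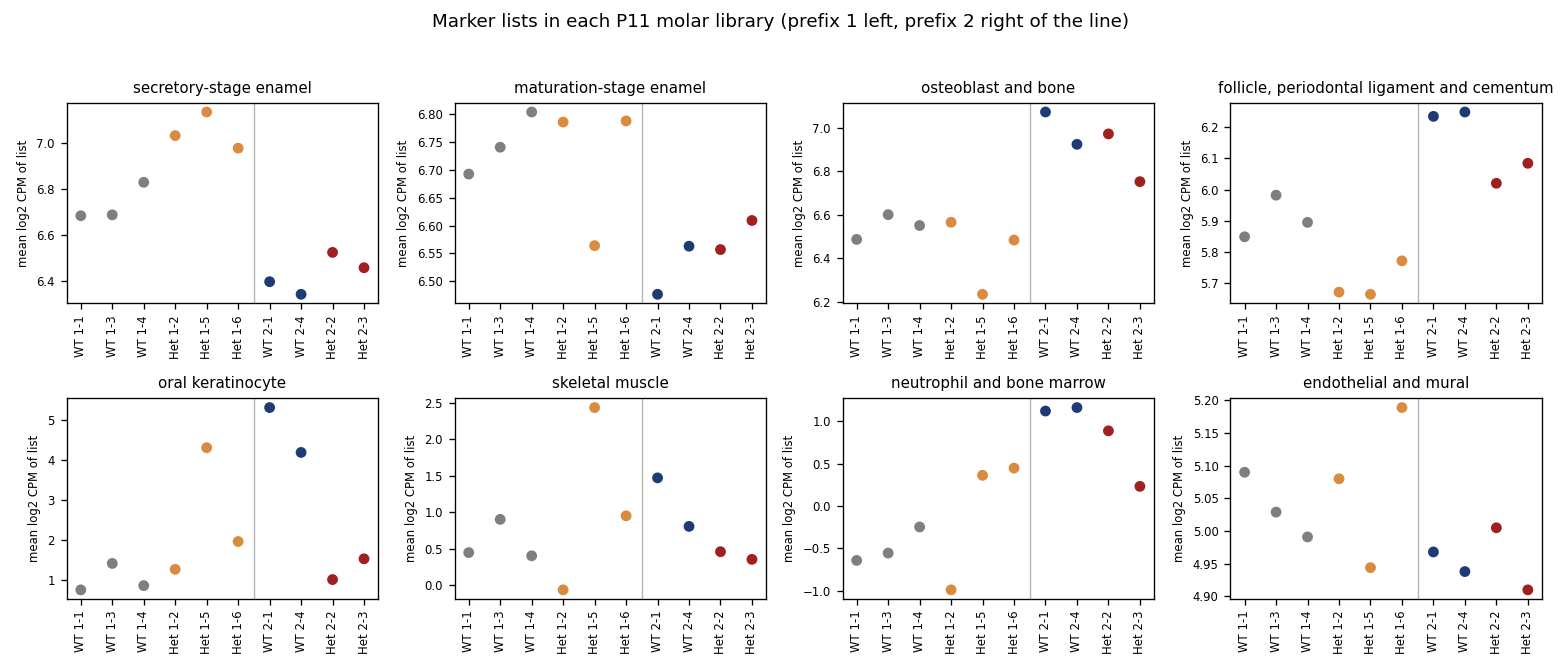
Mean log2 CPM of 8 gene lists in each P11 library (1 point each), prefix 1 libraries on the left and prefix 2 libraries on the right of each panel, coloured by genotype and prefix, with a separate vertical scale per panel. The secretory, bone and attachment lists are separate between the prefixes, while the oral keratinocyte list is high in WT 2-1, WT 2-4 and Het 1-5.

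The 15 called protein-coding genes with the largest positive changes, among those with a mean of at least 5 CPM in 1 prefix group and no overlap between the groups, include 10 described here. The other 5 are Nat8l, Slc25a48, Mmp11, Chodl and Adm. Tmprss11g, a membrane serine protease of squamous epithelia, had 0.454 to 1.85 CPM (median 0.939) with prefix 1 and 7.93, 11.2, 4.96 and 5.29 CPM with prefix 2. For Tmprss11g the log2 change was 2.77 ± 0.30 (adjusted p = 0.00211). Tmprss11b, of the same family, had 1.74 to 7.04 CPM (median 4.19) with prefix 1 and 36.4, 40.8, 10.3 and 15.2 CPM with prefix 2. For Tmprss11b the log2 change was 2.44 ± 0.44 (adjusted p = 0.014). Both genes were highest in WT 2-1 and WT 2-4, where the mucosal keratins were high, and Het 1-5, the other library with high mucosal keratins, held 0.866 and 7.04 CPM, the latter the highest value of prefix 1. The part of mucosal tissue in these differences was not tested. Cwh43, which acts on lipid anchors of membrane proteins, had 1.67 to 4.78 CPM (median 2.5) with prefix 1 and 20.8, 20.7, 5.96 and 13.9 CPM with prefix 2. For Cwh43 the log2 change was 2.44 ± 0.29 (adjusted p = 0.00247). Il1rl1, the interleukin-33 receptor, had 7.98 to 12 CPM (median 9.76) with prefix 1 and 89.3, 97.6, 12.5 and 32.6 CPM with prefix 2, with Het 2-2 close to prefix 1. For Il1rl1 the log2 change was 2.28 ± 0.34 (adjusted p = 0.00617). The epithelial cytokine Il36g (2.48 ± 0.49, adjusted p = 0.0201), the arginine deiminase Padi4 (2.13 ± 0.28, adjusted p = 0.00382), the GTPase Rhov (1.43 ± 0.32, adjusted p = 0.0328), and Dynap (1.87 ± 0.30, adjusted p = 0.00811), Serpinb10 (1.16 ± 0.16, adjusted p = 0.00443) and Fam83b (1.07 ± 0.14, adjusted p = 0.00358) were also higher. Tmprss11g, Cwh43, Il1rl1, Padi4, Dynap, Serpinb10 and Fam83b were called whichever library was left out. Tmprss11b lost the call without WT 2-4 (adjusted p = 0.0554). Il36g lost its call without WT 1-3, WT 1-4, WT 2-1 or WT 2-4 (adjusted p = 0.0505 to 0.0714). Rhov lost its call in every fit that left out a library other than Het 1-5, Het 2-2 or Het 2-3 (adjusted p = 0.0582 to 0.0973). None of these 10 genes was called in the mucosa-low set, where Tmprss11g stood at 2.47 (adjusted p = 0.106) and Il1rl1 at 1.31 (adjusted p = 0.188).

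Nat8l, which encodes the enzyme that makes N-acetylaspartate (ENSMUSG00000048142, GRCm38 chromosome 5, 33995984 to 34005916), was at 25, 35 and 27 CPM in the WT and 16.7, 22.9 and 13.6 CPM in the Het libraries of prefix 1. The Nat8l levels with prefix 2 were 104 and 119 CPM for WT and 51 and 88.2 CPM for Het. Every library of prefix 2 lay above every library of prefix 1. For Nat8l the log2 change was 1.96 ± 0.17 (adjusted p = 0.00106), and the P5 median was 1.93 CPM (range 1.4 to 3.1). Pfkfb3, a regulator of glycolysis, had 40.3 to 55.4 CPM (median 47.4) with prefix 1 and 74.4, 102, 73.5 and 74.4 CPM with prefix 2. For Pfkfb3 the log2 change was 0.74 ± 0.09 (adjusted p = 0.00247). Mamdc2, a secreted matrix protein, had 10 to 14.1 CPM (median 12.4) with prefix 1 and 21.4, 26.1, 21.5 and 18.6 CPM with prefix 2. For Mamdc2 the log2 change was 0.86 ± 0.08 (adjusted p = 0.00142). Nat8l, Pfkfb3 and Mamdc2 were called in all 22 alternative settings. Pappa2, a protease that frees insulin-like growth factors from their binding proteins, had 67.7 to 88.3 CPM (median 78.3) with prefix 1 and 123, 129, 119.5 and 110.1 CPM with prefix 2. For Pappa2 the log2 change was 0.63 ± 0.06 (adjusted p = 0.00106). Tgfa, a ligand of the epidermal growth factor receptor, had 4.33 to 8.58 CPM (median 6.2) with prefix 1 and 16.4, 16.6, 8.8 and 10.4 CPM with prefix 2. For Tgfa the log2 change was 1.00 ± 0.10 (adjusted p = 0.00149). The lysosomal protease Ctsc (0.75 ± 0.08, adjusted p = 0.00224), the stress-induced Nupr1 (0.68 ± 0.08, adjusted p = 0.00247), the metalloprotease Mmp11 (1.29 ± 0.19, adjusted p = 0.00549) and the mitochondrial carrier Slc25a48 (1.70 ± 0.24, adjusted p = 0.00443) were higher. Pappa2, Tgfa, Ctsc, Nupr1, Mmp11 and Slc25a48 were called whichever library was left out. The lectin chondrolectin, Chodl (1.21 ± 0.21, adjusted p = 0.0109), and the peptide adrenomedullin, Adm (1.07 ± 0.26, adjusted p = 0.044), were higher as well. Chodl lost the call without WT 2-4 (adjusted p = 0.0523). Adm lost its call in every fit that left out a library other than WT 1-3 or Het 1-5 (adjusted p = 0.06 to 0.136).

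Among lower genes outside the lists, Atp1b1, the beta subunit of the sodium-potassium pump, was at 30.2, 24.1 and 28.3 CPM in the WT and 37.8, 27.9 and 34.5 CPM in the Het libraries of prefix 1. The Atp1b1 levels with prefix 2 were 11.7 and 11.8 CPM for WT and 19.4 and 17.8 CPM for Het. The groups did not overlap. For Atp1b1 the log2 change was -1.03 ± 0.11 (adjusted p = 0.00149). Scara5, a receptor for ferritin, had 19 to 25.6 CPM (median 21.6) with prefix 1 and 11.6, 8.29, 12.6 and 12.6 CPM with prefix 2. For Scara5 the log2 change was -0.96 ± 0.11 (adjusted p = 0.00247), and both genes were called in all 22 settings. Alcam, a cell adhesion molecule, had 13.6 to 19.5 CPM (median 16.8) with prefix 1 and 6.86, 5.61, 11.3 and 9.03 CPM with prefix 2. For Alcam the log2 change was -1.03 ± 0.10 (adjusted p = 0.00149). Csn3, which encodes the milk protein kappa-casein and lies beside the enamel genes, was at 73.9, 59.8 and 65 CPM in the WT and 206, 194 and 247 CPM in the Het libraries of prefix 1. The Csn3 levels with prefix 2 were 27.8 and 28.8 CPM for WT and 65 and 42.6 CPM for Het. Het 2-2 lay within the WT range of prefix 1, so its groups overlapped. For Csn3 the log2 change was -1.60 ± 0.17 (adjusted p = 0.00206), and it was not called without the genotype covariate (adjusted p = 0.0605). Chst1, a sulfotransferase that modifies keratan sulfate, was at 6.08, 3.86 and 4.59 CPM in the WT and 21.7, 28.4 and 17.2 CPM in the Het libraries of prefix 1. The Chst1 levels with prefix 2 were 2.96 and 1.74 CPM for WT and 2.48 and 2.23 CPM for Het. As for Enam, the Het libraries of prefix 1 stood above the WT ones. For Chst1 the log2 change was -2.10 ± 0.42 (adjusted p = 0.0208), and the P5 median was 227 CPM (range 209.6 to 248).

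Atp7b, a copper-transporting ATPase, had 5.0 to 18 CPM (median 8.21) with prefix 1 and 2.82, 2.1, 3.72 and 3.81 CPM with prefix 2. For Atp7b the log2 change was -1.59 ± 0.26 (adjusted p = 0.00844). Esrrg, an orphan nuclear receptor, was low, with 0.837 to 1.18 CPM (median 1.08) with prefix 1 and 0.191, 0.278, 0.238 and 0.0929 CPM with prefix 2. For Esrrg the log2 change was -2.39 ± 0.28 (adjusted p = 0.00247). Enpp2, the enzyme autotaxin, which makes lysophosphatidic acid, had 182 to 287 CPM (median 224) with prefix 1 and 113, 120.3, 199 and 176 CPM with prefix 2. For Enpp2 the log2 change was -0.61 ± 0.07 (adjusted p = 0.00208). The adhesion protein Nlgn2 (-0.60 ± 0.07, adjusted p = 0.00211), the G-protein subunit Gna12 (-0.68 ± 0.08, adjusted p = 0.00247), the secreted protein Pi15 (-0.99 ± 0.16, adjusted p = 0.00806) and the homeobox gene Irx1 (-0.92 ± 0.16, adjusted p = 0.0119) were lower. So were the alpha-catenin Ctnna2 (-1.46 ± 0.34, adjusted p = 0.0384), the pentraxin Nptx1 (-0.98 ± 0.21, adjusted p = 0.0272) and the kinase Mylk3 (-0.91 ± 0.19, adjusted p = 0.0234). Alcam, Csn3, Atp7b, Esrrg, Enpp2, Nlgn2, Gna12 and Pi15 were called whichever library was left out. Irx1 lost the call without WT 2-4 (adjusted p = 0.0567). Chst1 lost its call without WT 2-4, Het 2-2 or Het 2-3 (adjusted p = 0.0675 to 0.0718). Ctnna2 lost its call in every fit that left out a library other than Het 1-2, Het 1-5 or Het 1-6 (adjusted p = 0.0617 to 0.117). Nptx1 lost its call in every fit that left out a library other than Het 1-5, Het 1-6 or Het 2-2 (adjusted p = 0.0557 to 0.117). Mylk3 lost its call without WT 2-4, Het 2-2 or Het 2-3 (adjusted p = 0.0739 to 0.0769). Csn3, Chst1, Pi15 and Mylk3 were also called in the mucosa-low set (adjusted p = 0.00371, 0.00301, 0.03 and 0.037).

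Blood and marrow genes differed in part. All 15 neutrophil and bone marrow genes had positive log2 changes (median 1.16), against 11102 of all 22027 genes tested, and 3 were called higher. Within WT the median of these marrow genes was 1.88 with 5 called higher, and within Het it was 0.37 with 0 called. Mpo, myeloperoxidase, had 0.837 to 3.63 CPM (median 1.36) with prefix 1 and 10.1, 8.04, 11.7 and 3.06 CPM with prefix 2. For Mpo the log2 change was 2.32 ± 0.45 (adjusted p = 0.0197). Neutrophil elastase, Elane, stood at 2.52 ± 0.54 (adjusted p = 0.0288) and the calcium-binding S100a8 at 1.38 ± 0.31 (adjusted p = 0.0363). All 15 were low, with medians under 5 CPM at P5 and with prefix 1. The mean log2 CPM of the list was -0.99 to 0.45 with prefix 1 and 0.23 to 1.16 with prefix 2, an overlap between Het 2-3 and Het 1-5 and 1-6. Of 11 erythroid genes, Hemgn was higher (1.00 ± 0.24, adjusted p = 0.0432) and Tfrc lower, and the haemoglobin gene Hba-a1 was not called (0.46 ± 0.20, adjusted p = 0.265). Mpo lost its call without WT 1-3, WT 2-1, WT 2-4 or Het 2-2 (adjusted p = 0.0504 to 0.0817). Elane lost its call in every fit that left out a library other than Het 1-2, Het 1-5, Het 1-6 or Het 2-3 (adjusted p = 0.0693 to 0.134). S100a8 lost its call in every fit that left out a library other than Het 1-2, Het 1-5, Het 1-6 or Het 2-3 (adjusted p = 0.0821 to 0.13). Hemgn lost its call in every fit that left out a library other than Het 1-5 or WT 2-1 (adjusted p = 0.0534 to 0.204). Of the marrow genes, 0 were called higher and 0 lower in the Y-free set, and 0 and 0 in the mucosa-low set. The part of marrow in the bone gene results was not tested.

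Of 18 hypoxia and glycolysis genes 4 were higher, namely Pfkfb3, Adm, the mitophagy receptor Bnip3 (0.59 ± 0.12, adjusted p = 0.0221) and lactate dehydrogenase Ldha (0.36 ± 0.07, adjusted p = 0.014). The angiogenic factor Vegfa was lower (-0.50 ± 0.11, adjusted p = 0.0262). Nr1d1, a repressor of the circadian clock, was the 1 called member of 18 clock genes, with 17.2 to 21.6 CPM (median 19.9) with prefix 1 and 35.2, 38.9, 25.8 and 28.9 CPM with prefix 2. For Nr1d1 the log2 change was 0.70 ± 0.10 (adjusted p = 0.00544). Of 21 macrophage and dendritic cell genes, the antigen-presentation chaperone Cd74 was higher (0.54 ± 0.12, adjusted p = 0.039), and the mannose receptor Mrc1 (-0.51 ± 0.12, adjusted p = 0.037) and the complement gene C1qc (-0.38 ± 0.09, adjusted p = 0.0409) were lower. Single members were called on other lists, where 1.5% of all genes tested were called higher and 1.97% lower. Such single calls are not read as results about the lists. The mast cell protease Cma1 (0.84 ± 0.16, 1 of 12), the chloride channel Ano1 (0.27 ± 0.06, 1 of 11) and metallothionein Mt1 (0.58 ± 0.08, 1 of 14) were higher. So were the lipid enzyme Acly (0.36 ± 0.06, 1 of 20) and the nucleotide enzyme Rrm2 (0.32 ± 0.06, 1 of 30). The chaperone Calr (-0.33 ± 0.07, 1 of 24) and mitochondrial mt-Nd6 (-0.25 ± 0.06, 1 of 11) were lower. Of 10 cartilage genes, the collagen Col11a1 (0.32 ± 0.07) was higher and the collagen Col9a1 (-0.62 ± 0.14) lower. No member was called among genes of skeletal muscle (15 tested), endothelial and mural cells (22), nerve and Schwann cells (15), adipocytes (7), the immediate early response (19) and the interferon response (14). Nr1d1 and Mt1 were called whichever library was left out. Ldha and Acly lost the call without WT 2-4 (adjusted p = 0.0737 and 0.0562). Bnip3 lost its call without WT 1-1, WT 1-4, WT 2-4 or Het 2-3 (adjusted p = 0.056 to 0.109). Vegfa lost its call without WT 1-3, WT 1-4, Het 1-2, WT 2-4 or Het 2-2 (adjusted p = 0.0512 to 0.107). Cd74 lost its call in every fit that left out a library other than Het 1-5, Het 1-6 or Het 2-3 (adjusted p = 0.069 to 0.141). Mrc1 lost its call in every fit that left out a library other than Het 1-5, Het 1-6 or Het 2-2 (adjusted p = 0.0632 to 0.122). C1qc lost its call in every fit that left out a library other than Het 1-5 or Het 1-6 (adjusted p = 0.057 to 0.142). Cma1 lost its call without WT 2-1 or Het 2-2 (adjusted p = 0.053 to 0.0612). Ano1 lost its call in every fit that left out a library other than Het 1-5 or Het 1-6 (adjusted p = 0.0615 to 0.134). Rrm2 lost its call without WT 1-3, WT 1-4, WT 2-1, WT 2-4 or Het 2-3 (adjusted p = 0.0519 to 0.11). Calr lost its call without WT 2-4, Het 2-2 or Het 2-3 (adjusted p = 0.0828 to 0.0879). mt-Nd6 lost its call in every fit that left out a library other than WT 1-1, Het 1-2, Het 1-5 or WT 2-1 (adjusted p = 0.0533 to 0.108). Col11a1 lost its call in every fit that left out a library other than WT 1-3 or Het 1-5 (adjusted p = 0.0604 to 0.113). Col9a1 lost its call in every fit that left out a library other than WT 1-1, Het 1-5 or Het 2-2 (adjusted p = 0.0582 to 0.154).

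The prefix difference was also taken within each genotype, 2 libraries against 3, from a fit of the 4 groups. Within WT 378 genes (1.72%) were higher and 172 (0.781%) lower, and within Het 13 (0.059%) and 19 (0.0863%). The 15 genes called in both, 2.73% of the WT calls and 46.9% of the Het calls, all had the same sign. Lower were Alcam, Amelx, Atp1b1, Csn3, Enam and Esrrg, and higher were Ctsc, Dmp1, Mamdc2, Mfsd4a, Nat8l, Pappa2, Sema3c, Slc40a1 and Tgfa. Enam had a log2 change of -3.09 ± 0.35 in WT and -4.45 ± 0.38 in Het (adjusted p = 0.0057 and 0.00118). Amelx had -1.37 ± 0.16 in WT and -2.14 ± 0.16 in Het (adjusted p = 0.0057 and 0.000925), and Dmp1 had 0.95 ± 0.13 in WT and 1.03 ± 0.13 in Het (adjusted p = 0.00976 and 0.0153). For Nat8l both genotypes gave nearly the same value, 1.96 ± 0.25 in WT and 1.96 ± 0.25 in Het (adjusted p = 0.00761 and 0.0153). Chst1 was called within Het and not within WT, with -1.02 ± 0.28 in WT and -3.26 ± 0.30 in Het (adjusted p = 0.0861 and 0.00148). Il1rl1, at 3.13 ± 0.29 in WT and 1.31 ± 0.29 in Het (adjusted p = 0.00262 and 0.119), and Mmp11, at 1.85 ± 0.12 in WT and 0.69 ± 0.12 in Het (adjusted p = 0.000224 and 0.0703), were called within WT and not within Het. The difference between the genotypes was tested directly. The interaction of prefix and genotype gave 0 genes by edgeR, with a smallest adjusted p of 0.156 and 1826 genes at an unadjusted p under 0.05. This count moved with the setting. DESeq2 called 139 genes and limma-voom 0. By edgeR it was 586 without a filter on low counts, 158 with all 22 libraries in the fit, 21 in the Y-free set, 344 without Het 1-2 and 48 without Het 1-5. The adjusted p of the interaction was 0.428 for Enam and 0.156 for Chst1. The counts within each genotype also moved with single libraries. Without WT 1-4 the WT counts were 6 higher and 5 lower, and without WT 2-1 they were 7 and 1. Without Het 2-3 the Het counts were 1 higher and 3 lower. Without Het 1-2 they were 179 and 116, and the WT counts were 650 and 407. Over all libraries left out in turn, the WT counts ran from 6 to 650 higher and 1 to 407 lower, and the Het counts from 1 to 179 and 3 to 116.

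**Figure D4:**
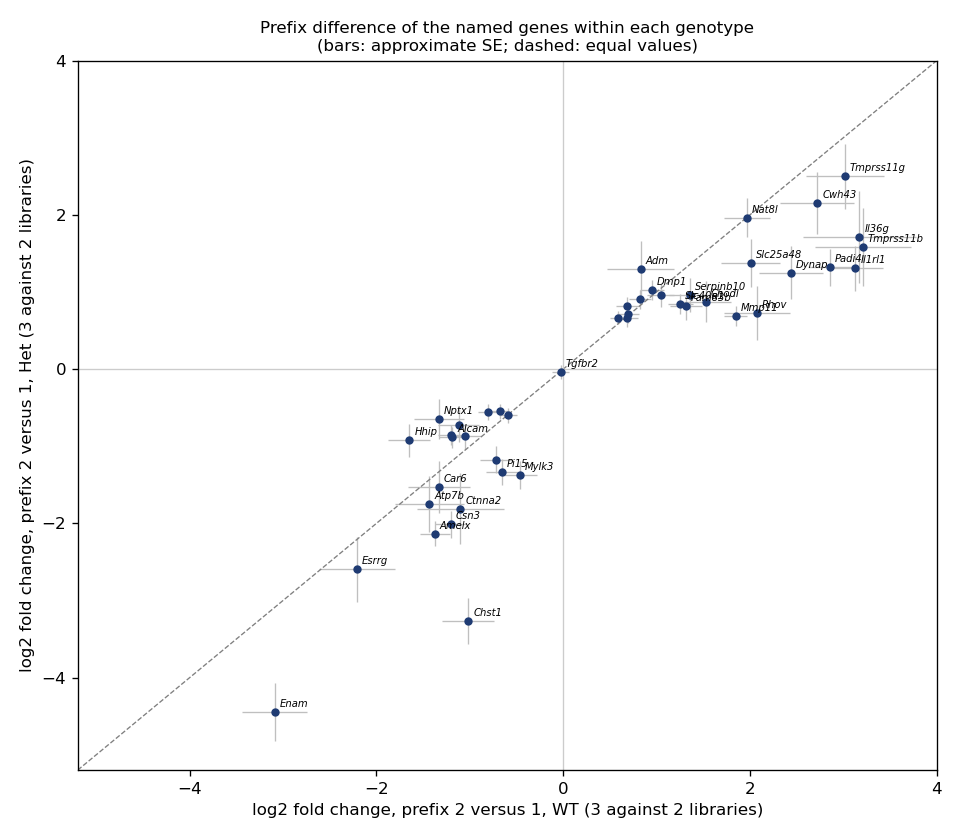
Log2 changes of prefix 2 over prefix 1 within WT (horizontal) and within Het (vertical) for the genes named by rule, 1 point per gene with approximate SE as bars and a dashed line of equal values. All genes lie in the lower left or the upper right, Tgfbr2 next to 0 and Enam lowest on both axes at -3.09 and -4.45. Many of these genes were chosen for having no overlap between the prefixes. That choice fixes the same sign in both genotypes, so their place is no test of agreement.

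All prefix 2 libraries lack Y-linked transcripts and 4 of 6 prefix 1 libraries hold them, so prefix and this property can be told apart in these data through WT 1-1 and Het 1-6 alone. The Y-linked genes Ddx3y, Eif2s3y, Uty and Kdm5d were among the genes called lower. Of the 109 listed or named genes called in the 10 libraries, 42 were also called in the Y-free set, and all 105 that were tested there kept their sign, in libraries that are a subset of the 10. Enam stood at -3.74 (adjusted p = 0.00163) and Amelx at -1.61 (adjusted p = 0.00163) in the Y-free set. Nat8l stood at 2.25 (adjusted p = 0.00863) and Dmp1 at 0.93 (adjusted p = 0.025). In the mucosa-low set the 4 values were -4.33 (adjusted p = 0.00371), -2.06 (adjusted p = 0.00335), 2.19 (adjusted p = 0.0152) and 1.05 (adjusted p = 0.03). Krt14, at 0.58 (adjusted p = 0.168), and Ibsp, at 0.67 (adjusted p = 0.209), were not called in that set. With Ddx3y as a covariate 97 genes were higher and 125 lower, and 163 of the 763 calls were kept, among them Enam at -3.60 (adjusted p = 0.00547) and Krt14 at 0.80 (adjusted p = 0.0319) but not Ibsp at 0.74 (adjusted p = 0.1) or Klk4 at -0.58 (adjusted p = 0.051). With the oral keratinocyte score as a covariate 350 genes were higher and 360 lower. The listed or named genes called in all 22 settings were Amelx, Atp1b1, Dmp1, Enam, Mamdc2, Nat8l, Pfkfb3 and Scara5.

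**Figure D5:**
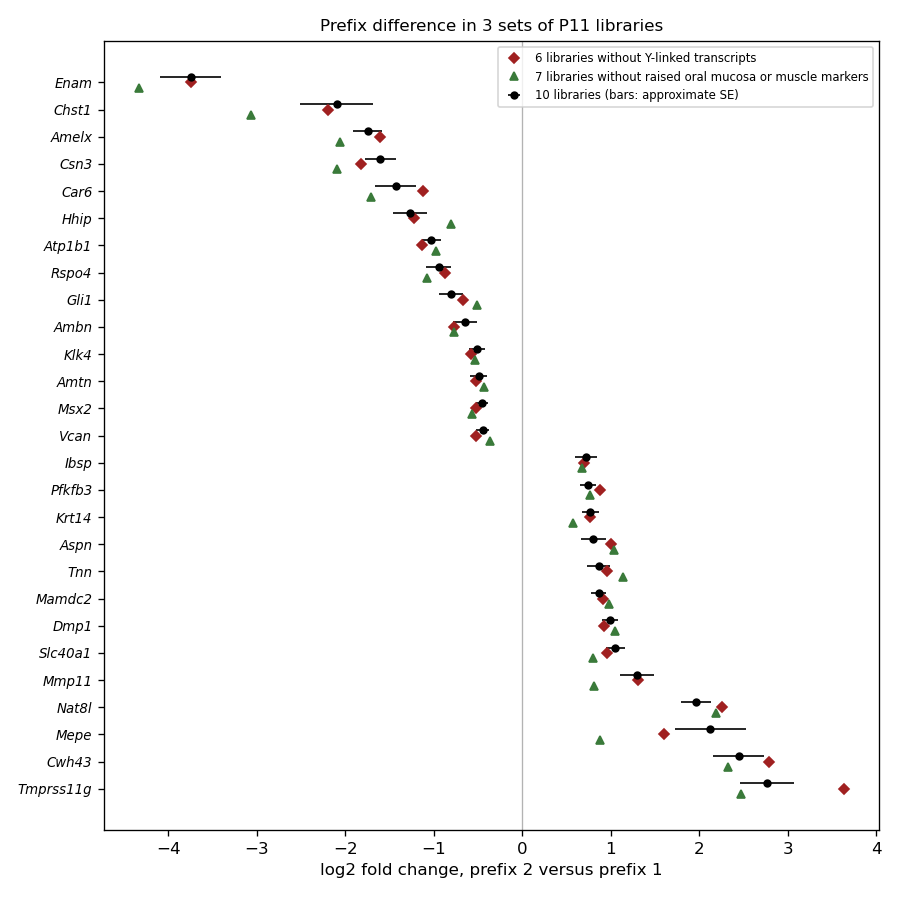
Log2 changes of prefix 2 over prefix 1 for 27 genes. Black points, with approximate SE, are from all 10 P11 libraries. Red points are from the 6 libraries without Y-linked transcripts, and green points are from the 7 libraries of the mucosa-low set. Every gene shown lies on the same side of 0 in all sets. The smaller sets are parts of the 10 libraries, so these signs are not independent.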

How the data were processed

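Total RNA of first molars was sequenced as unstranded Nextera XT libraries (100 bp, paired-end, 2 runs), per the labels' protocols, so sense and antisense reads cannot be told apart. The authors deposited whole-number counts per gene, aligned with STAR 2.7.3a to GRCm38, per the submitters' processing notes; which tool counted reads, and on which annotation, is not given in these sources. The deposited signal table is the authors' CPM with TMM factors, which the counts gave back within a relative 5.1e-15; levels come from it, and list scores are means of log2 CPM (prior count 2). Of 55439 features, 18 that are not mouse genes (0.000109% to 0.000457% of counts) were left out.

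From the counts of the 10 P11 libraries, genes passing filterByExpr (minimum count 10, total 15) were fitted with edgeR 4.0.16 (R 4.3.3; quasi-likelihood test, two-sided, Benjamini-Hochberg over all genes), with genotype and prefix as terms, or 4 groups for the contrasts within a genotype and the interaction. SE is the log2 change divided by the root of F. Alternatives were DESeq2 1.42.0, limma-voom 3.58.1, RLE factors, no filter, all 22 libraries, each library left out, covariates, a replicate block and subsets of libraries. The script was tested on simulated data. No pair of replicates agreed within sampling noise (chi-square per degree of freedom 8.19 to 85.5).

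Members of the gene lists could be named. Others named were the 15 called protein-coding genes with the largest change in each direction, with at least 5 CPM in 1 group and no overlap, the 10 with the smallest p in each direction, and Tgfbr2. Members and lists were chosen with earlier results of these data known. Promoters are from RefSeq.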

Additional observations from a re-analysis of the deposited data

Results flagged for a closer look

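A single library stood far from the rest of its prefix group in 8 of 158 groups of list scores and named genes (5.06%), where the test used, Dixon's, flags about 5% by chance. Of these, 4 concern Het 1-5 among the 6 libraries of prefix 1. Its mean log2 CPM was 5.37 for the TGF-beta targets (nearest library 5.53), 6.23 for the osteoblast and bone genes (nearest 6.48) and 4.31 for the oral keratinocyte genes (nearest 1.95), and its log2 CPM of Ctnna2 was 6.16 (nearest 4.55). Among the 4 libraries of prefix 2, Het 2-2 had a mean of 3.28 for the macrophage and dendritic cell genes (nearest 2.96), and Het 2-3 had a mean of 1.17 for the lymphocyte and mast cell genes (nearest 1.64). WT 2-4 had a log2 CPM of 8.37 for Ctsc (nearest 8.12). Tgfbr2 in Het 2-3 was at 6.64 on the same scale (nearest 6.82).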

How the results depend on the processing

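Counts are given as higher and lower genes for prefix 2 over prefix 1, then within WT, within Het, and for the interaction. DESeq2 gave 716 and 922, 726 and 509, 216 and 244, and 139. All 22 libraries in 1 fit gave 548 and 700, 591 and 296, 61 and 109, and 158. Without a filter on low counts there were 946 and 628 within WT, 319 and 502 within Het and 586 for the interaction. The mucosa-low set gave 8 and 20, the same as within Het, and no fit within WT. As covariates, the muscle score gave 834 and 772 and Ddx3y 97 and 125. The Y-free set, chosen after seeing the data, gave 66 and 80, 181 and 51, 52 and 63, and 21. The number after the hyphen as a replicate block gave 860 and 749, but correlations of same-numbered deviations ran from -0.043 to 0.057, so the numbers were not taken as pairs. Leaving out 1 library gave 91 to 676 and 97 to 721 (fewest without WT 2-4, most without Het 1-5), 6 to 650 and 1 to 407 within WT, 1 to 179 and 3 to 116 within Het, and 0 to 344 for the interaction. The causes were not tested. Other settings (limma-voom, RLE factors, no genotype covariate, the oral keratinocyte score) stayed within 1.5 times for all counts they gave. Of the 43 named genes called, 33 were called whichever library was left out, and 0 changed sign in the 22 settings. These genes were chosen from the same libraries by small p or by large change without overlap between the prefixes. The sign count was therefore largely fixed by that choice and is no test of the results.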
